A study of Danio rerio with 6 samples.

Results

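Zebrafish embryos kept in 1.5% ethanol were compared with embryos kept in 1% ethanol, the pair of doses in a study of ethanol and microRNAs. Whole embryos (Danio rerio) were exposed to ethanol diluted in system water, starting at 4 h after fertilisation, and were collected at 24 h. Each group had 2 arrays, described as biological replicates: 1.5% ethanol replicates 1 and 2, and 1% ethanol replicates 1 and 2. A control group of 2 arrays came from embryos kept in plain system water. In the main fit it entered the model only for its share of the spread. Its arrays were also normalised together with the ethanol arrays, and so had a part in the levels. Embryos were handled as dishes, so each array averages many whole embryos. Fewer cells of a type and less microRNA per cell therefore cannot be told apart. The 4 ethanol arrays are 4 of the 6 arrays of the study.

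The arrays held 243 probes named for zebrafish microRNAs, each printed as 4 spots. A probe was set apart as measured when it lay above the empty spots on 2 or more of the 4 ethanol arrays. On an array this meant that at least as many of its kept spots exceeded a threshold as fell short of it, the threshold being the 95th percentile of that array's empty and blank spots. By this rule 42 of the 243 probes were set apart and 201 were not. Of the 42 microRNAs, 32 met this on every one of the 4 ethanol arrays, 5 on 3 arrays and 5 on 2 arrays. Just inside the rule, the deciding spots of miR-96 and miR-210* stood at 1.02 and 1.03 times the threshold. Just outside it, those of ZF_miR_9 and miR-92a stood at 0.982 and 0.974 times the threshold. Only miR-210* entered through the 1.5% arrays alone, and no probe entered through the 1% arrays alone.

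MicroRNAs are short RNAs that pair with target messenger RNAs, mainly through a few bases near their start, and lower the translation and stability of those targets. In the zebrafish embryo the miR-430 family clears maternal messages, and tissue microRNAs such as miR-1 in muscle, miR-9 in brain and miR-203a in skin come on as organs form. Ethanol is a teratogen in vertebrates, and both the nervous system and the face are known targets of exposure.

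The label of whole embryos was set against tissue microRNAs. Probes for miR-430b, miR-430j, miR-1, miR-9 and miR-203a were above the empty spots on all 4 ethanol arrays. Those for miR-124 of neurons and miR-206 of muscle were above them on none of the 4. The same held for miR-122 of liver, miR-451 of red blood cells and miR-126 of endothelium. Muscle and brain were thus represented by miR-1 and miR-9. Liver, red blood cells and endothelium had no measured microRNA among these probes.

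The arrays of both doses were of like brightness. The median foreground of zebrafish spots was 184.5 and 169 intensity units on the 1.5% arrays, and 165 and 172 on the 1% arrays. The 95th percentile of the empty spots was 391.6 and 255.7 at 1.5%, against 350.25 and 334.8 at 1%. Above it lay 56 and 49 zebrafish probes at 1.5%, and 35 and 45 at 1%. By the experiment names in the file headers, replicate 2 of both doses lay on the same slide. Replicate 1 of 1.5% shared a slide with a control array, and replicate 1 of 1% with the other one. The difference within the shared slide, which has 1 array of each dose and no test, is given beside the wide differences below. With slide as a block in the limma fit of all 6 arrays, miR-736 differed by 5.81, miR-193b by 3.54, miR-203a by 2.54 and ZF_miR_20 by 1.82, and all 4 passed the threshold. In that fit, which leaves fewer residual degrees of freedom, every probe was given the same SE, 0.43. Without the slide block the SEs of these 4 were 1.07, 0.89, 0.86 and 1.33. Passing the threshold there thus does not take in their own spread between replicates. Across the 42 set-apart probes, the 1.5% replicates correlated at r = 0.942 and the 1% replicates at r = 0.855. Arrays of different dose correlated at 0.711 to 0.868. These correlations run across probes, which are not independent replicates. miR-736, miR-193b, ZF_miR_20 and miR-203a had the widest gaps between the 1% replicates.

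No microRNA passed the test between the doses. With limma and Benjamini-Hochberg adjustment over the 243 probes, 0 were under an adjusted p of 0.05 (0% of all probes tested), and the lowest adjusted p was 0.291. At an unadjusted p under 0.05, limma gave 6 of the 42 set-apart probes and 18 of all 243 (7.41%). Of the 6, miR-736, miR-193b, miR-23a and miR-210* were higher at 1.5% ethanol, and miR-146b and miR-181a were lower. With 2 arrays a dose, the smallest two-sided p of an exact permutation test is 0.333, and the values below are from the limma fit. P-values measure only the spread between these arrays.

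The doses did not overlap, in that both arrays of one lay above both of the other, for 13 of the 42 set-apart probes, beside 31.7% of all zebrafish probes. Among those, 8 were higher at 1.5%, beside 15.2% of all probes, and 5 were lower, beside 16.5%. The other 29 overlapped. The count of set-apart probes without overlap is thus near the background. The difference of 1.5% minus 1% had a median of -0.09 log2 units over the 42 and -0.05 over all 243, and it lay within 0.5 units of 0 for 33 of the 42. The split of signs moves with the scaling. With quantile normalisation 15 of 42 were above 0, beside 43.6% of all probes. The number was 24 with cyclic loess and 38 when arrays were scaled on their empty and blank spots. Under the latter scaling the median of all probes stood at 0.21. A shared small shift between the doses is therefore not measured here.

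**Figure D1:**
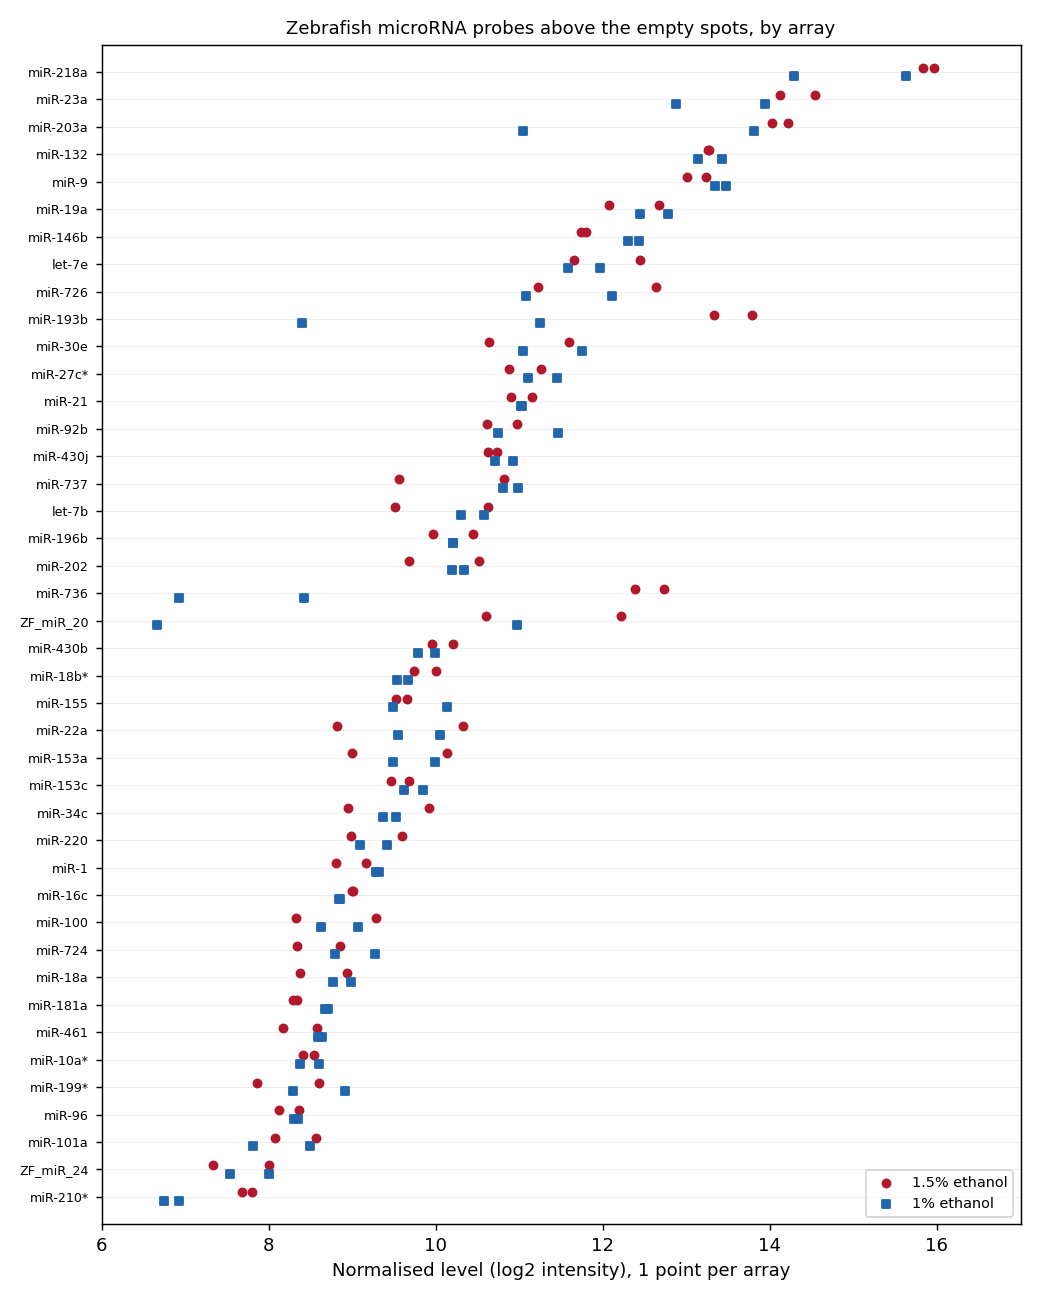
Normalised level (log2 intensity, x axis) of the 42 set-apart microRNAs on each ethanol array, ordered by mean level; red circles are the 2 arrays of 1.5% ethanol and blue squares the 2 arrays of 1%. For most microRNAs the 4 points lie close together, and miR-736, miR-193b, ZF_miR_20 and miR-203a have the widest spread, with a 1% array far to the left.

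The plot of levels by array shows where the spread lies. The 42 microRNAs ran from a mean of 7.29 log2 units for miR-210* to 15.43 for miR-218a. The gap between the 2 replicates had a median of 0.41 log2 units at 1.5% and 0.30 at 1%, but its highest value was 1.62 at 1.5% and 4.31 at 1%.

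How far the doses could differ is given by the 95% interval of each difference. That interval lay within 1 log2 unit of 0 on both sides, which is a factor of 2 either way, for 24 of the 42 set-apart probes, beside 79.8% of all zebrafish probes. The 42 were brighter, with a median level of 10.05 log2 units against 7.36 for the other 201, and their intervals were wider, with a median half-width of 0.64 against 0.50. For 18 of the 42, the interval reached past 1 log2 unit. Tighter limits were reached for 4 of the 42, whose interval lay within 0.5 log2 units.

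**Figure D2:**
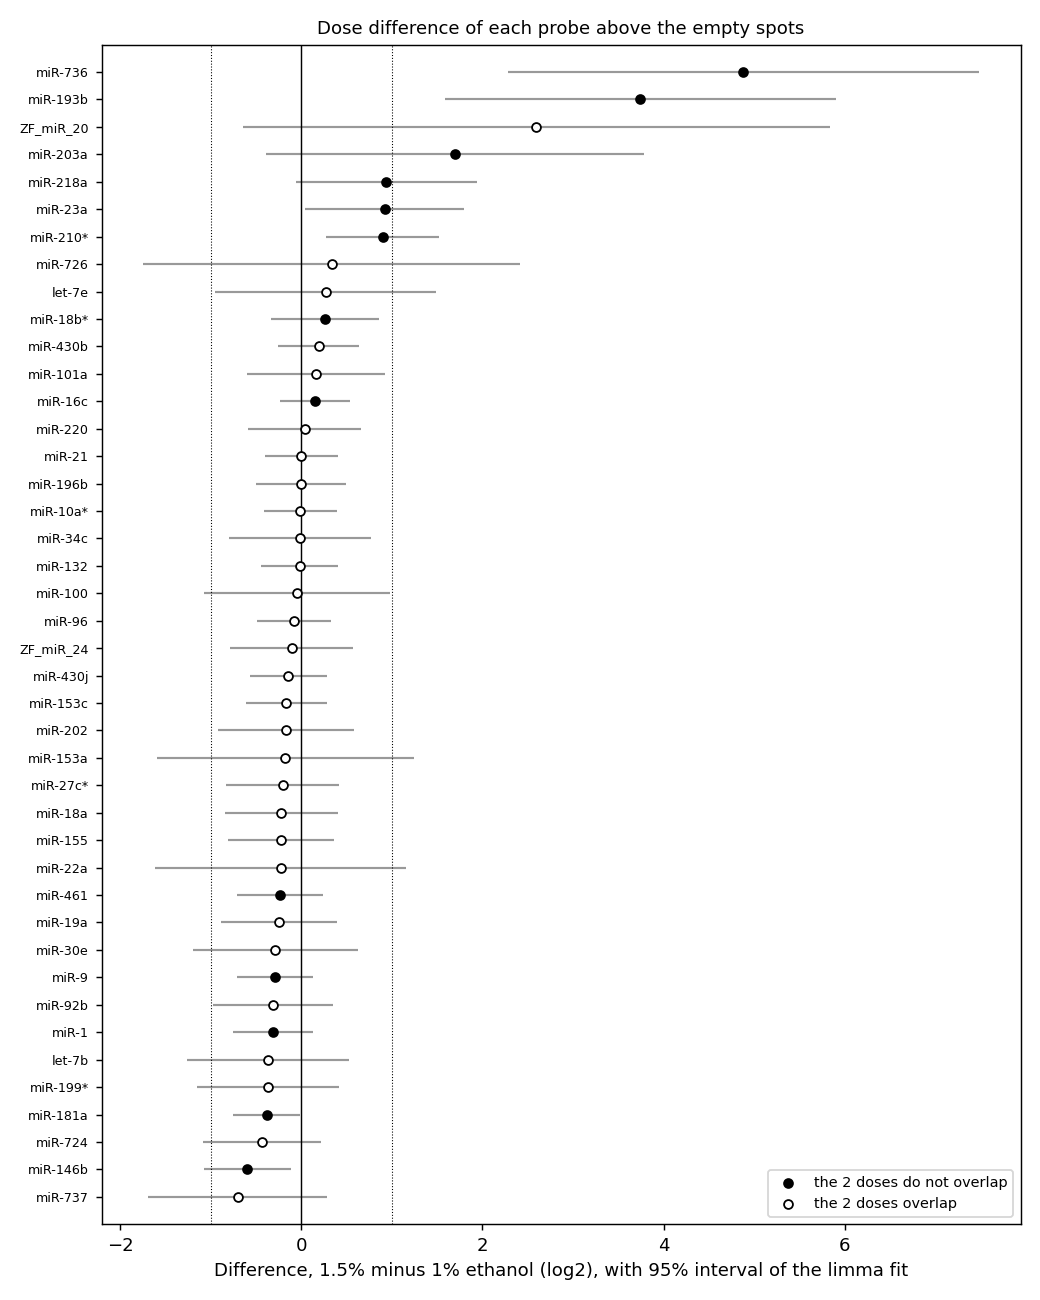
Difference of 1.5% minus 1% ethanol (log2, x axis) for the 42 set-apart microRNAs, each with the 95% interval of the limma fit; filled points are microRNAs whose 2 doses did not overlap, open points those that did, and dotted lines mark 1 log2 unit either way. The top 4 points, from miR-736 at 4.88 to miR-203a at 1.69, lie over 1 log2 unit, and no other set-apart microRNA does.

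In the plot of dose differences, the set-apart microRNAs fall into a long right tail of a few probes and a body close to 0. The widest difference on the low side was that of miR-737, a microRNA named first in fish, at -0.70 log2 units, and its doses overlapped. Its level was 9.57 and 10.82 at 1.5%, against 10.80 and 10.98 at 1%. Both arrays of 1% and one array of 1.5% were close, and replicate 1 of 1.5% stood below them (SE 0.41, adjusted p = 0.865, limma). On that array 1 of its 3 kept spots read 200 intensity units, against a median of 1724. Without that array the difference was -0.08, and it was -0.16 within the shared slide. It was -0.17 from print blocks 1 to 12 alone and -1.76 from blocks 13 to 24 alone.

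The difference of miR-736, another microRNA named in fish, was the widest of all. Its level was 12.38 and 12.73 log2 units on the 1.5% arrays, against 6.93 and 8.43 on the 1% arrays. Both 1.5% arrays were far above both 1% arrays. The mean was 12.56 ± 0.25 at 1.5% and 7.68 ± 1.06 at 1% (SD, n = 2 each), a difference of 4.88 (SE 1.07, 95% interval 2.28 to 7.48, adjusted p = 0.291, limma). This is 29.4-fold on the normalised scale, although 1% replicate 1 was not above its empty spots. Replicate 2 of 1% only just met the rule, with 2 of 4 spots over the threshold. Its median spot was 315 intensity units, against a threshold of 334.8. The fold thus depends on where the floor of both 1% arrays lies. Within the slide that held replicate 2 of both doses the difference was 4.30. The controls did not settle a baseline, with 12.16 on one array and 8.78 on the other. The spots of a given array were close to each other: kept spots gave 5990 to 6963 and 6806 to 6886 intensity units at 1.5%, and 96 to 207 and 282 to 506 at 1%. The sign held in all 36 alternatives, with a range of 4.13 to 5.81. Several of these cannot change the difference: those of the set-apart rule, the probes fitted, the spread, and the replicate and position blocks. Of the 36, 6 put miR-736 past the threshold, with limma adjusted p-values of 9.30e-30 to 0.748 over the alternatives.

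For miR-193b, which in mice takes part in brown fat differentiation, the order was the same. The level was 13.78 and 13.34 at 1.5%, against 8.39 and 11.24 at 1%. The doses did not overlap, and the 1% arrays differed from each other by more than the 1.5% arrays did. Means were 13.56 ± 0.32 at 1.5% and 9.82 ± 2.01 at 1% (SD, n = 2 each), with a difference of 3.74 (SE 0.89, 95% interval 1.58 to 5.90, adjusted p = 0.320, limma), or 13.4-fold. As for miR-736, 1% replicate 1 was not above its empty spots, so the fold depends on the floor of that array. Control arrays read 13.96 and 12.92, near the 1.5% level. The difference within the shared slide was 2.09, and without 1% replicate 1 it was 2.32. Without 1% replicate 2 it was 5.20, against the 1 array at the floor. On 1% replicate 2 the kept spots disagreed, at 831 and 8428 intensity units, and on 1% replicate 1 they read 288 to 419, with 1 of 4 over the threshold.

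The probes of miR-736 and miR-193b are printed in the same pair of print blocks, numbers 8 and 20. On 1% replicate 1, 6 of 8 microRNA probes of any species in that pair, all above the empty spots on the other 3 ethanol arrays, were lower by over 1 log2 unit than their mean on those 3. Elsewhere on that array 4 of 149 were (2.68%). Those 8 include miR-736 and miR-193b, which prompted the count, and without them it was 4 of 6. On 1% replicate 2, where the filter leaves out both, the counts were 1 of 3 in the pair and 4 of 146 elsewhere. On the 1.5% arrays they were 0 of 3 and 1 of 3 in the pair, and 5 of 158 and 9 of 147 elsewhere. The part of print position in the differences of miR-736 and miR-193b was not tested.

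ZF_miR_20, whose name is not explained in the sources used here, had the third widest difference, and its doses overlapped. The level was 12.22 and 10.60 at 1.5%, against 6.66 and 10.97 at 1%. Only 1% replicate 1 was low. The difference was 2.60 (SE 1.33, 95% interval -0.64 to 5.84, adjusted p = 0.769, limma), but -0.37 within the shared slide, and it was 0.44 without 1% replicate 1. On 1% replicate 1 its spots read 90 to 115 intensity units, none above the threshold. Without 1% replicate 2 the difference was 4.85, against that 1 array.

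**Figure D3:**
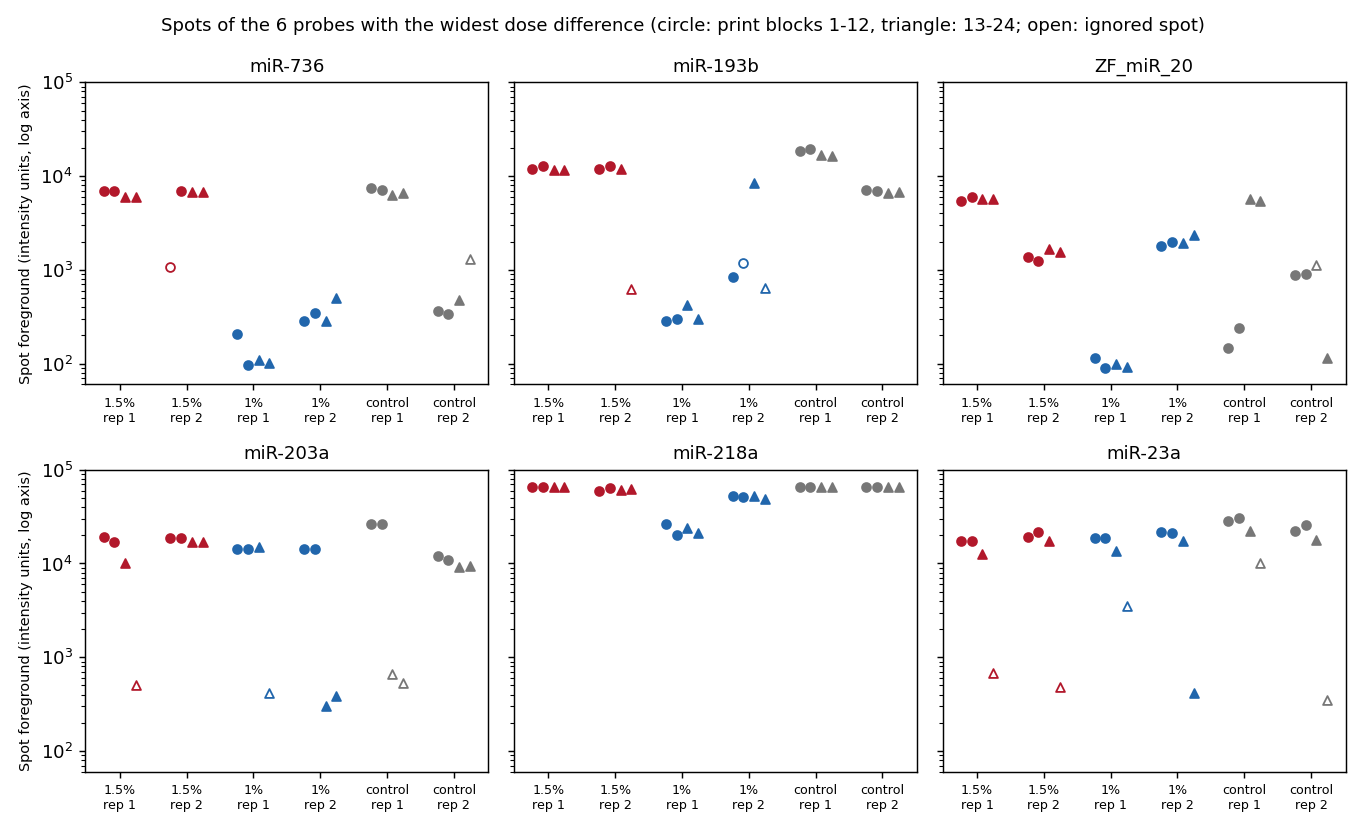
Foreground intensity of each spot (log axis) on the 6 arrays for the 6 set-apart microRNAs with the widest dose difference; red is 1.5% ethanol, blue 1%, grey control, circles are print blocks 1 to 12, triangles 13 to 24, and open symbols are spots marked to be ignored. For miR-203a and miR-23a the kept dim spots of 1% replicate 2, at 303, 389 and 416 intensity units, lie far below the other kept spots of those probes.

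The plot of single spots shows 3 more microRNAs at the top of the range. For miR-203a, which restrains growth and drives differentiation in the epidermis, the level was 14.03 and 14.22 at 1.5%, against 13.81 and 11.05 at 1%. The doses did not overlap, and 1% replicate 2 was the low array. The difference was 1.69 (SE 0.86, 95% interval -0.39 to 3.78, adjusted p = 0.766, limma), and 3.17 within the shared slide. Of the 36 alternatives 3 put it past the threshold, one of them the slide block. On 1% replicate 2 the spots of print block 9 gave 14411 and 14288 intensity units and the kept spots of block 21 gave 303 and 389. Dim spots of block 21 on other arrays were marked to be ignored. They read 504 on 1.5% replicate 1, 417 on 1% replicate 1, and 661 and 536 on control replicate 1. From print blocks 1 to 12 alone the difference was 0.55, from blocks 13 to 24 alone it was 2.70, and without 1% replicate 2 it was 0.31.

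For miR-23a, encoded beside miR-27 and miR-24 genes and studied in blood vessels and muscle, the level was 14.12 and 14.54 at 1.5%, against 13.94 and 12.87 at 1%. The doses did not overlap, and replicate 2 of 1% was again the low array, with a difference of 0.92 (SE 0.36, 95% interval 0.05 to 1.80, adjusted p = 0.587, limma). One of its 2 spots in print block 22 was marked to be ignored on the other 5 arrays, where it read 350 to 10042 intensity units, but was kept, at 416, on 1% replicate 2. The remaining spots of that array read 17487 to 21579. The difference was 1.67 within the shared slide. From print blocks 1 to 12 alone the difference was 0.19, and without 1% replicate 2 it was 0.40. With the ignored spots kept it was -0.10.

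The brightest probe was miR-218a, a microRNA of motor neurons. The level was 15.97 and 15.84 at 1.5%, against 14.29 and 15.63 at 1%, a difference of 0.94 (SE 0.41, 95% interval -0.06 to 1.94, adjusted p = 0.633, limma). All 4 spots of 1.5% replicate 1 and of both control arrays were saturated, so their level is a lower bound. Spots of 1.5% replicate 2 lay at 59829 to 63531 intensity units, those of 1% replicate 1 at 20161 to 26618 and those of 1% replicate 2 at 48456 to 52292. The dim array was thus 1% replicate 1: the difference was 0.25 without it and 0.20 within the shared slide. Without 1% replicate 2 it was 1.59. With saturated arrays at 1.5% and in the controls, the differences and the SE of miR-218a are limited by the scanner's ceiling.

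miR-210*, the partner strand of a microRNA induced by low oxygen, was near the floor. Its level was 7.80 and 7.68 at 1.5%, against 6.75 and 6.93 at 1%. It was above the empty spots on both 1.5% arrays and on no 1% or control array, which is what let it in, so its difference of 0.90 (SE 0.26, adjusted p = 0.488, limma), or 0.75 within the shared slide, is a description of a probe the rule favoured. Its kept spots disagreed on the 1.5% arrays, at 137 to 470 and 122 to 310 intensity units. On 1% replicate 1 a kept spot read 0, against a median of 122.5. The difference was 1.04 from print blocks 1 to 12 alone and 0.53 from blocks 13 to 24 alone.

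On the low side, miR-146b, which in mammals damps innate immune signalling, had the smallest unadjusted p of the set-apart probes that were lower at 1.5%. The level was 11.80 and 11.74 at 1.5%, against 12.30 and 12.43 at 1%. Replicates of each dose agreed closely and did not overlap, with a difference of -0.60 (SE 0.20, 95% interval -1.08 to -0.12, adjusted p = 0.505, limma). It was -0.69 within the shared slide, -0.59 and -0.60 from print blocks 1 to 12 and 13 to 24, and -0.64 to -0.55 when single arrays were left out. It was -0.03 when arrays were scaled on their empty and blank spots. Control arrays read 11.79 and 12.22, one near each dose. miR-181a, active in the retina and in immune cells, read 8.33 and 8.29 at 1.5%, against 8.71 and 8.68 at 1%. The difference was -0.38 (SE 0.15, 95% interval -0.75 to -0.02, adjusted p = 0.587, limma). It stood on the edge of detection at 1.5%, above the empty spots on replicate 2 and not on replicate 1. Its difference was -0.39 within the shared slide and 0.01 when scaled on the empty and blank spots.

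The remaining set-apart microRNAs of the nervous system had differences within 0.5 log2 units. miR-9, a regulator of neural progenitors, read 13.23 and 13.01 at 1.5%, against 13.34 and 13.47 at 1%, without overlap and with a difference of -0.29 (95% interval -0.71 to 0.13). miR-132, induced by activity in mammalian neurons, read 13.26 and 13.27 at 1.5%, against 13.14 and 13.42 at 1%. Its interval was -0.44 to 0.40. miR-153c and miR-153a, which target synaptic vesicle proteins, differed by -0.16 and -0.17. The interval for miR-153c was -0.61 to 0.28, and that for miR-153a was -1.60 to 1.25, with 1.5% arrays at 10.14 and 8.99. miR-34c, named with the p53 pathway, differed by -0.01 (95% interval -0.80 to 0.77). Over the 24 neural probes 6 were above 0 and 18 below, with a median of -0.10. Over all 243 probes 106 were above 0 and 137 below, with a median of -0.05. In the neural list 0 passed the test and 4 had an unadjusted p under 0.05 (limma), beside 18 of all 243 probes (7.41%). Of the 4, miR-128 and miR-129 were higher at 1.5%, and miR-181a and miR-7b were lower. Among these 4 miR-128, miR-129 and miR-7b, described below, were not set apart.

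Of the early and timing families, miR-430b read 10.21 and 9.95 at 1.5%, against 9.99 and 9.79 at 1%, and miR-430j read 10.73 and 10.62 at 1.5%, against 10.71 and 10.93 at 1%. Both overlapped, with differences of 0.19 and -0.14 and intervals of -0.25 to 0.64 and -0.57 to 0.28. The 5 miR-430 probes had a median of 0.09, and 0 passed the test. The let-7 family, which times differentiation, had 2 set-apart members. let-7e read 11.65 and 12.44 at 1.5%, against 11.97 and 11.58 at 1%, and let-7b read 9.51 and 10.63 at 1.5%, against 10.30 and 10.58 at 1%. Both overlapped. The interval was -0.95 to 1.49 for let-7e and -1.26 to 0.52 for let-7b. On 1% replicate 2 the kept spots of let-7e ran from 536 to 5087 intensity units, with a median of 4374. The difference of let-7e was -0.17 from print blocks 1 to 12 alone and 0.72 from blocks 13 to 24 alone.

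Members of the proliferative miR-17-92 clusters differed little. miR-19a read 12.07 and 12.67 at 1.5%, against 12.45 and 12.78 at 1%, and miR-18a read 8.38 and 8.93 at 1.5%, against 8.77 and 8.99 at 1%. Their genes lie within 10000 bases of each other in RefSeq (GRCz12tu assembly, 38 of 40 registered names matched), and their differences were -0.25 and -0.22. On 1.5% replicate 1, where miR-18a read 8.38, its kept spots ran from 162 to 623 intensity units, with a median of 581. The difference of miR-18a thus leans on a dim spot of that array. miR-92b differed by -0.31, and by -0.68 to 0.04 with single arrays left out. Its kept spots went down to 270 intensity units on 1.5% replicate 1 (median 3235.5) and to 357 on 1% replicate 2 (median 2800.5). miR-18b*, without overlap, differed by 0.26, but by -0.02 from print blocks 1 to 12 alone and 0.49 from blocks 13 to 24 alone. The lowest kept spots of miR-18b* read 372 on 1% replicate 1 (median 873) and 445 on 1% replicate 2 (median 998). The only other pair of set-apart neighbours was miR-23a with miR-27c*, at 0.92 and -0.20. Of the 20 probes in the list 7 were above 0 and 13 below, with a median of -0.12, beside 106 and 137 of all 243. In the list 0 passed the test. An unadjusted p under 0.05 (limma) was reached by 1, miR-19a*, which was not set apart, beside 7.41% of all probes.

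Several tissue microRNAs are represented by 1 or 2 set-apart probes. Muscle miR-1 read 9.16 and 8.81 at 1.5%, against 9.28 and 9.32 at 1%, a difference of -0.31 (95% interval -0.76 to 0.13) without overlap. miR-155, a microRNA of immune cells, differed by -0.23. The hair-cell microRNA miR-96 differed by -0.08 (95% interval -0.49 to 0.32). From the Hox clusters, which pattern the body axis, miR-10a* and miR-196b gave intervals of -0.41 to 0.40 and -0.50 to 0.50. miR-199*, of mesenchyme, read 8.61 and 7.86 at 1.5%, against 8.29 and 8.91 at 1%, so the doses overlapped, and the difference was -0.37 (95% interval -1.15 to 0.41). It was -1.05 within the shared slide and -0.75 to -0.01 with single arrays left out. A kept spot of miR-199* read 0 intensity units on 1.5% replicate 2 (median 299.5) and on 1% replicate 1 (median 468.5). On 1% replicate 2 its kept spots read 448 to 507. The level of 7.86 and the difference within the shared slide thus take in a spot without signal.

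Among other set-apart microRNAs, miR-21, often raised by injury and in tumours, read 11.16 and 10.90 at 1.5%, against 11.02 and 11.04 at 1%, with an interval of -0.40 to 0.41. miR-16c, of a cell-cycle family, read 9.00 and 9.01 at 1.5%, against 8.86 and 8.84 at 1%. It did not overlap, and its difference was only 0.16 (95% interval -0.23 to 0.54). miR-30e differed by -0.28, and miR-100, whose relatives lie with let-7 genes, by -0.04. The fish microRNAs miR-726, miR-724 and miR-461 differed by 0.34, -0.44 and -0.23. Replicate spread was wide for miR-726, with an interval of -1.74 to 2.42. Intervals also reached past 1 log2 unit for miR-100 (-1.07 to 0.98), miR-30e (-1.20 to 0.63) and miR-724 (-1.09 to 0.21). miR-22a, studied in the mouse heart, and gonad miR-202 differed by -0.23 and -0.17, and miR-220 and miR-101a by 0.04 and 0.17. With 1.5% arrays at 10.33 and 8.82, the interval of miR-22a was -1.61 to 1.16. ZF_miR_24 differed by -0.11.

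**Figure D4:**
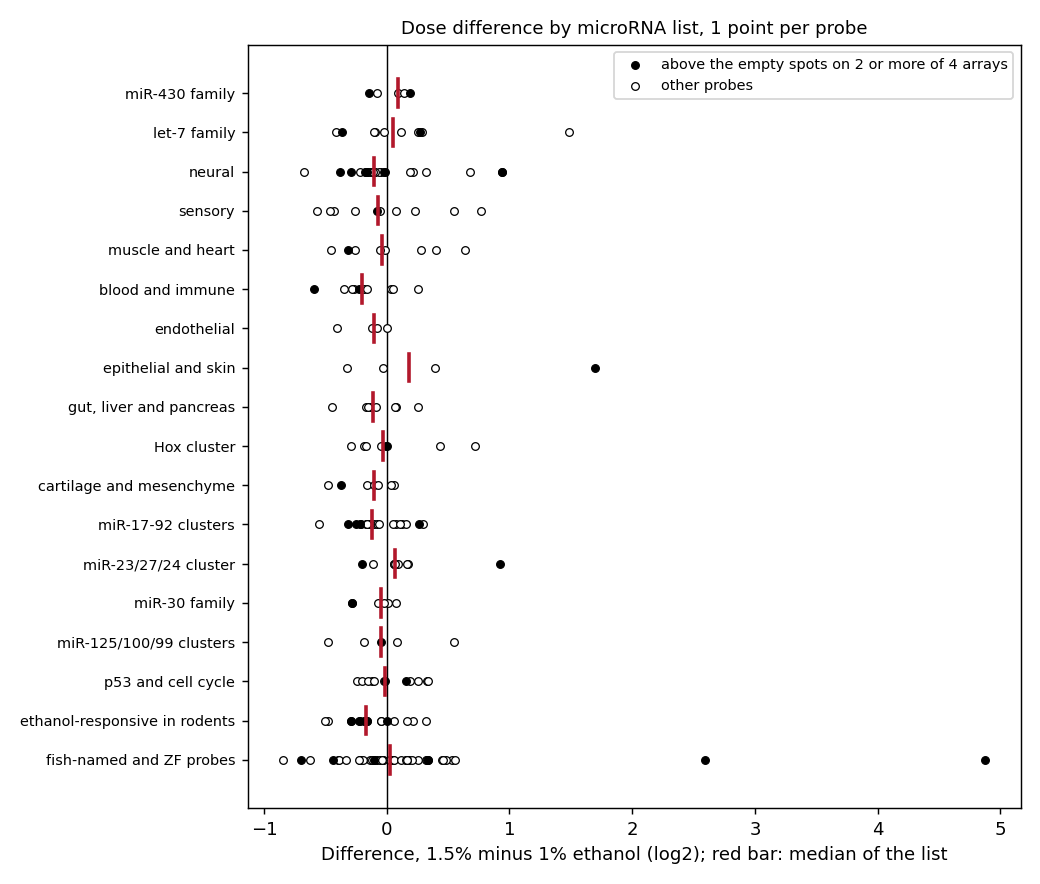
Difference of 1.5% minus 1% ethanol (log2, x axis) of each zebrafish probe, arranged by microRNA list; filled points are set-apart probes, open points the others, and red bars list medians. All 18 medians lie between -0.20 (blood and immune) and 0.18 (epithelial and skin), beside single points such as miR-736 at 4.88.

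The plot of lists places the median of every list near 0. Over all 243 probes 106 were above 0 (43.6%) and 137 below, and with empty spot scaling 197 were above 0. For epithelial and skin microRNAs, 2 of 4 probes were above 0, with miR-203a the far point; for muscle and heart 3 of 8 were, with a median of -0.03; for blood and immune 3 of 10, at -0.20; for the Hox cluster 2 of 8, at -0.03. Of 18 microRNAs named in rodent studies of ethanol, 5 were above 0 and 13 below, with a median of -0.17. In the let-7 family 5 of 10 were above 0, at a median of 0.05, and in the p53 and cell cycle list 5 of 12, at -0.02. The sensory list had 4 of 10 above 0, at -0.07, cartilage and mesenchyme 2 of 7, at -0.11, and gut, liver and pancreas 3 of 8, at -0.11. The endothelial list had 1 of 4, at -0.10, the miR-30 family 2 of 6, at -0.05, and the miR-125/100/99 clusters 2 of 5, at -0.04. The miR-23/27/24 cluster had 7 of 9 above 0, at 0.07, and the fish-named and ZF probes had 24 of 46, at 0.03. None of the probes in any list passed the test with limma (0 of 243). Since a scaling can move all probes alike, list medians were also taken minus the median of all probes. On that basis 11 of the 18 lists kept their side under all 7 alternative scalings and 7 did not, among them the neural list, the let-7 family and the miR-430 family. No normalisation, both 75th percentile scalings, Ncode_Control scaling and empty spot scaling differ only by a constant per array. On this basis they give the same result, and only cyclic loess and print block centring add to it. Some offsets were tiny: 0.0004 for the miR-125/100/99 clusters and -0.003 for the miR-30 family.

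Among the 201 probes not set apart, the differences lie near the floor and a low group has only a bound. let-7c read 9.00 and 7.87 at 1.5%, against 6.73 and 7.18 at 1%. It was not well above the empty spots on either 1% array (difference 1.49, SE 0.39, adjusted p = 0.404, limma). Against the floor of the 1% arrays the 1.5% mean was 1.48-fold higher. This is not a firm bound, since 1.5% replicate 2 was itself not above its empty spots. Its level of 7.87 lay below the floor of 8.07 used for 1% replicate 1. miR-128, a brain microRNA, read 8.07 and 7.65 at 1.5%, against 6.85 and 7.01 at 1%, and 8.92 and 8.79 in the controls. The doses did not overlap, with a difference of 0.94 (SE 0.20, 95% interval 0.45 to 1.42, adjusted p = 0.291, limma), but only 1 of the 4 ethanol arrays put it above the empty spots. On that array, 1.5% replicate 1, its spots disagreed, at 97 to 551 intensity units. The difference of miR-128 was 0.56 from print blocks 1 to 12 alone and 1.31 from blocks 13 to 24 alone. On the other side, ZF_miR_22 read 6.71 and 6.64 at 1.5%, against 7.48 and 7.56 at 1%, a difference of -0.85 (SE 0.18, adjusted p = 0.291, limma). It was above the empty spots on none of these arrays. The difference was -0.13 from print blocks 1 to 12 alone and -1.56 from blocks 13 to 24 alone, and on 1% replicate 1 a single spot read 997 intensity units against a median of 101.5.

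Other probes outside the set-apart group with small unadjusted p were also dim. On the high side were miR-129, of the brain, at 0.68, miR-133a*, from a muscle microRNA gene, at 0.64, and ZF_miR_9, at 0.56. In that order they differed by 0.89, 1.01 and 1.21 from print blocks 1 to 12 alone. From blocks 13 to 24 alone they differed by 0.22, 0.26 and -0.10. On the low side were miR-7b, of neuroendocrine cells, at -0.67, miR-200b, of epithelia, at -0.57, miR-19a* at -0.55 and heart miR-499 at -0.45. Adjusted p for these 7 lay at 0.488 to 0.509 (limma). Some other dim members of the tissue lists were closer between the doses. Endothelial miR-222 averaged 7.49 log2 units at 1.5% and 7.58 at 1%, and endothelial miR-126 averaged 7.38 at 1.5% and 7.50 at 1%. Pancreatic islet miR-375 averaged 8.12 at 1.5% and 8.05 at 1%, and epidermal miR-205 averaged 7.88 at 1.5% and 7.48 at 1%. On 1.5% replicate 2 a kept spot of miR-205 read 947 intensity units, against a median of 190. Smooth muscle miR-143 averaged 7.94 at 1.5% and 8.05 at 1%.

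Set beside the controls, which entered no comparison here, the group means had no single order by dose. The 1% mean was the middle one of the 3 groups for 13 of the 42 set-apart probes and 72 of all 243. The 1.5% mean was in the middle for 12 and 78, and the control mean for 17 and 93. Because all 3 means share a normalisation, these counts are a description.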

How the data were processed

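MicroRNA was measured on one-colour (Cy3) arrays of 5040 spots. Each deposited file gives spot foreground and local background as raw intensity, per the file headers. The authors' deposited table is on a log2 scale and served as an alternative only. The software and genome build of the probe design are not given in the sources used here. Intensities were corrected by normexp with an offset of 50, set to log2 and quantile normalised over the microRNA spots of the 6 arrays. Spots marked to be ignored, 4.64% to 11.7% of an array, were dropped, and the remaining spots of a probe averaged.

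A model of the 3 groups was fitted to 6 arrays with limma 3.58.1 in R 4.3.3 (3 residual degrees of freedom, prior of 3.15). P-values for 1.5% minus 1% were two-sided and adjusted by Benjamini-Hochberg over 243 probes, with a threshold of 0.05. The pipeline was tested on simulated data. A group not well above the empty spots on any array has only a bound: the fold is then taken against the higher of its own value and the lowest level over the empty spots, per array. Precision is limited by the number of arrays. Arrays with the same experiment name in the file headers were taken to share a slide, which the labels do not state. The position on the slide was read from the location of the spots.

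Named were, by rule, the 10 set-apart probes with the smallest p in each direction, 5 others in each direction, the 12 brightest, the probe on each side of the rule, the 2 brightest of each of 18 lists, and miR-128, let-7c, miR-193b, miR-736, miR-218a and miR-203a. Others were added as members. Some dim probes picked by this rule, such as miR-192 and miR-133a, are not described above. The members and lists were chosen with earlier results of these data known. Alternatives changed the background correction, scaling, spot and probe filters, blocks, spread and arrays used. Probe sequences were not used here.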

Additional observations from a re-analysis of the deposited data

Results flagged for a closer look

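For 6 of the 243 probes, 2 of them set apart, both arrays of one dose lay above both control arrays and both arrays of the other dose lay below them. These were miR-736 (1.5% minus 1% difference of 4.88 log2 units), miR-133a* (0.64), miR-181a (-0.38), miR-19a* (-0.55), miR-7b (-0.67) and ZF_miR_22 (-0.85). The doses had opposite signs relative to control. Apart from the dose contrast itself, which none of them passed with limma, this was not tested. With 2 arrays a group, some of the 243 probes can take such an order by chance. The count of 6 was not set against that number. For miR-736 a 1% array read 8.43, close to a control array at 8.78. Of the 6, 4 were not set apart.

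Probes named for other species took no part in the comparison. Of 835 such probes, 20.6% and 23.0% were above the empty spots on the 1.5% arrays, 16.9% and 18.2% on the 1% arrays, and 19.6% and 19.5% on the control arrays. Whether they share sequence with zebrafish microRNAs was not tested.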

How the results depend on the processing

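Of 36 alternatives, 8 gave calls among the zebrafish probes. Calls numbered 2 without normalisation (miR-193b, miR-736), 5 when scaled on the 75th percentile of detected probes (4 of them set apart), 4 on Ncode_Control spots, 3 with the authors' deposited table (2 set apart: miR-193b and miR-736), 4 with slide as a block, 1 with slide as a block on the set-apart probes alone (miR-736) and 1 from print blocks 1 to 12 alone (miR-193b). The slide and position blocks on set-apart probes and the splits by print block were chosen after seeing the data. In the percentile, Ncode_Control and slide block fits, limma gave every probe the same SE (0.41, 0.48 and 0.43). Calls in those fits thus do not take in the spread of each probe. Leaving out single arrays gave 0 to 3 calls, for all and for set-apart probes, the 3 without 1% replicate 2 (ZF_miR_20, miR-193b, miR-218a). There the lone 1% array is assumed to vary like the other groups, it is not above background for ZF_miR_20 and miR-193b, and other arrays are saturated for miR-218a. Set-apart probes without overlap numbered 13, beside 31.7% of all zebrafish probes, and 27 of 74 with detection on at least 1 array. They numbered 13 with either control array left out and 20 to 35 with an ethanol array left out. In the latter fits 1 array faces 2, so that non-overlap is easier to reach. The share over all probes was not counted for these alternatives. Those with an interval within 1 log2 unit numbered 24, 46 of 74 with detection on at least 1 array, 5 on Ncode_Control scaling, 14 on empty spot scaling, 14 with slide as a block, 0 with it on the set-apart probes alone, 11 with position as a block there, 15 from print blocks 13 to 24, 14 with unmoderated spread, and 17 to 22 with an array left out. The numbers were not taken as pairs: replicate gaps correlated at -0.04 between the doses (-0.17 over set-apart probes), 0.27 between 1.5% and control and -0.03 between 1% and control. The replicate block gave 0 calls (lowest adjusted p 0.385, limma) and 27 intervals within 1 log2 unit; on set-apart probes alone it gave 0 calls and 22. Apart from the easier non-overlap with an ethanol array left out, the cause of these moves was not tested.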
